A study of Mus musculus with 4 samples.

Results

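Krt1, Krt2 and Lor are 3 genes of the layers of the epidermis that harden, a process called cornification. They were taken as every probe set (a group of short oligonucleotides that reads a transcript) that the authors' list of fold changes between nail matrix regions names Krt1, Krt2 or Lor. Each gene had 1 such probe set, and the 3 genes stood among 1133 that the list names singly. The study compared the distal with the proximal nail matrix of mice aged 8 weeks, both taken by microdissection, with 2 Affymetrix arrays per region. Strain, sex and genotype are not given in the sources used here, and neither is whether the 2 arrays of a region came from separate animals or from pools, so the spread between arrays may be technical.

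Keratinocytes that leave the basal layer of the epidermis switch to the type II keratin Krt1, which forms filaments with the type I keratin Krt10. Krt2 is another type II keratin, known from the upper spinous and granular layers of mouse skin such as that of the ear, tail and sole. Lor encodes loricrin, a glycine-rich protein that transglutaminases cross-link beneath the membrane and that is the main component of the cornified envelope in epidermis. The nail matrix, in contrast, is known for hard keratins and keratin-associated proteins, and keratinises largely without a granular layer.

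The list held only probe sets at least 1.99-fold apart between the regions in the authors' values from these same arrays, so the values below describe the choice and nothing is supported with them. Counts of calls from the fit over all probe sets are printed beside the share of all probe sets called, and for every gene named through the list nothing is read from those counts. In the authors' deposited table Krt1 (probe set 1422481_at, Entrez gene 16678) was 2.21-fold lower in proximal than in distal matrix. In the same authors' deposited table Krt2 (1427154_at, Entrez gene 16681) was 4.26-fold and Lor (1420183_at, Entrez gene 16939) 4.64-fold higher in proximal matrix. Krt1 was thus the member nearest to the limit of the list. Probe sets outside the list carry no gene name here, so none just beyond the limit can be given.

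Krt1 and Krt2 lay next to each other on chromosome 15 in the RefSeq gene table of assembly GRCm38.p6, with 0 protein-coding genes between them, and Lor lay on chromosome 3 between Pglyrp3 and Prr9. The sequences upstream of Krt2 and Lor, the members that were higher in the proximal matrix, are shown because both carry a TATA motif at a like distance from the start and differ in a motif for AP-1, the Fos and Jun family of transcription factors. Each is the 250 bases before the RefSeq start in GRCm38.p6, on the minus strand, with motif matches in capitals. The RefSeq extent of Krt2 reaches further upstream than this start.
Krt2, chr15:101818170-101818419: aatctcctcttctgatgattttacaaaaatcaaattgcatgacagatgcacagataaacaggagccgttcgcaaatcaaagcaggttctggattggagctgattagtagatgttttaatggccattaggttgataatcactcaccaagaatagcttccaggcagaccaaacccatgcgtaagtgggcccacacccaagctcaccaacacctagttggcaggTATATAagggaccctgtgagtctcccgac
Lor, chr3:92083143-92083392: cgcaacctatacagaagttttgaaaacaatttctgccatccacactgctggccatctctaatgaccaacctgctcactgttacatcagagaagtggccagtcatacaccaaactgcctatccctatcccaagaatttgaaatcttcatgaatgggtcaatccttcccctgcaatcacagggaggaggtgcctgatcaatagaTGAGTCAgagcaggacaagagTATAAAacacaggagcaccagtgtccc
The Krt2 window held TATATA from 29 to 24 bases before the start, and the Lor window held TATAAA from 27 to 22 bases before it. TATATA occurred in 5.25% and TATAAA in 12.4% of the 32851 RefSeq promoter windows of this length, read on both strands. These shares, and that for AP-1 below, count a match anywhere in the window, not only at the distances given here. The AP-1 letters TGANTCA were present in the Lor window, as TGAGTCA from 48 to 42 bases before the start, and in 6.75% of all windows. They did not occur in these 250 bases of Krt2. The motifs do not overlap each other, they were chosen with both sequences in view, and a match is a description of letters, not of binding. The promoter set used here held no window for Krt1, so Krt1 was not examined for these motifs and cannot be compared with the other members.

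Total RNA labelled from the 3' end was read as intensities of 45037 probe sets besides 64 control probe sets. Median intensities lay between 41.6 and 55.7 on the 4 arrays. The brightest control for Bacillus subtilis genes, which mouse RNA should not light, lay between 45.4 and 96.8 and served as the background of its array. Control probes at the 3' end of the Gapdh transcript were 6.73 to 9.40 times as bright as those at its 5' end, a measure of how intact the RNA was. The same ratio for Actb was 0.52 to 0.64, so the control genes gave unlike readings. The regions overlapped in each ratio. Of the genes listed here for hard nail and hair, 11 could be named through the authors' list, 8 of them for keratin-associated proteins. The homeobox gene Hoxc13 was above background on all 4 arrays, and no hard keratin gene could be named. Precision is limited throughout by there being 2 arrays in each region.

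Krt1 was the brightest of the members and the one with more signal in the distal matrix. Its intensity was 5942 on distal replicate 1, 5742 on distal replicate 2, 2495 on proximal replicate 1 and 2459 on proximal replicate 2. Both distal arrays lay above both proximal arrays, and those within a region were nearly alike. A distal array exceeded a proximal one by 2.30-fold at least and 2.42-fold at most. The log2 difference, distal minus proximal, was 1.24 ± 0.24 (SE of the fit over all probe sets, n = 2 arrays per region), or 2.36-fold. The arrays of a region differed by 0.05 (distal) and 0.02 (proximal) on the log2 scale, while the 402 probe sets within 0.5 of its mean log2 intensity had median differences of 0.26 and 0.17. Krt1 ranked at the percentiles 99.0 and 98.9 of all probe sets in distal matrix and 98.0 and 97.9 in proximal matrix. In bulk tissue, fewer cells of a type and less RNA per cell cannot be told apart, here and in all differences below.

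Krt2 ran the other way. Its intensity was 229.9 on distal replicate 1, 742 on distal replicate 2, 1292 on proximal replicate 1 and 2172 on proximal replicate 2. The regions did not overlap, but the gap between the higher distal and the lower proximal array was 1.74-fold, against 9.45-fold between the arrays farthest apart. The arrays within the distal region differed by 3.23-fold and those within the proximal region by 1.68-fold. The log2 difference was -2.02 ± 0.44 (SE, n = 2 arrays per region), which is 4.05-fold higher in proximal matrix, and it lay at -1.17 without distal replicate 1 and at -2.87 without distal replicate 2. Its distal arrays were 1.69 apart on the log2 scale, where 1566 probe sets of similar brightness had a median of 0.50. Krt2 stayed among the brighter probe sets everywhere, at the percentiles 83.9 and 93.5 in distal and 96.3 and 97.6 in proximal matrix.

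Lor was the dimmest member. Its intensity was 58.7 on distal replicate 1, 4.2 on distal replicate 2, 331 on proximal replicate 1 and 239 on proximal replicate 2. Both proximal arrays were above both distal arrays. Of the distal arrays, replicate 1 was just over its background of 58.0 and replicate 2 was far below its background of 81.0, so loricrin signal was measured above background on 1 of the 2 distal arrays and on both proximal arrays. The log2 difference was -4.16 ± 1.18 (SE, n = 2 arrays per region), or 17.9-fold higher in proximal matrix, and the distal value of 4.2 decided its size. Without distal replicate 2 the difference was -2.26. With every array floored at its own background control, a setting chosen after the values were seen, it was -2.03, or 4.08-fold, beside the 4.64-fold of the authors' deposited table. The percentile of Lor was 57.3 and 12.1 in distal matrix and 87.5 and 83.3 in proximal matrix.

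**Figure D1:**
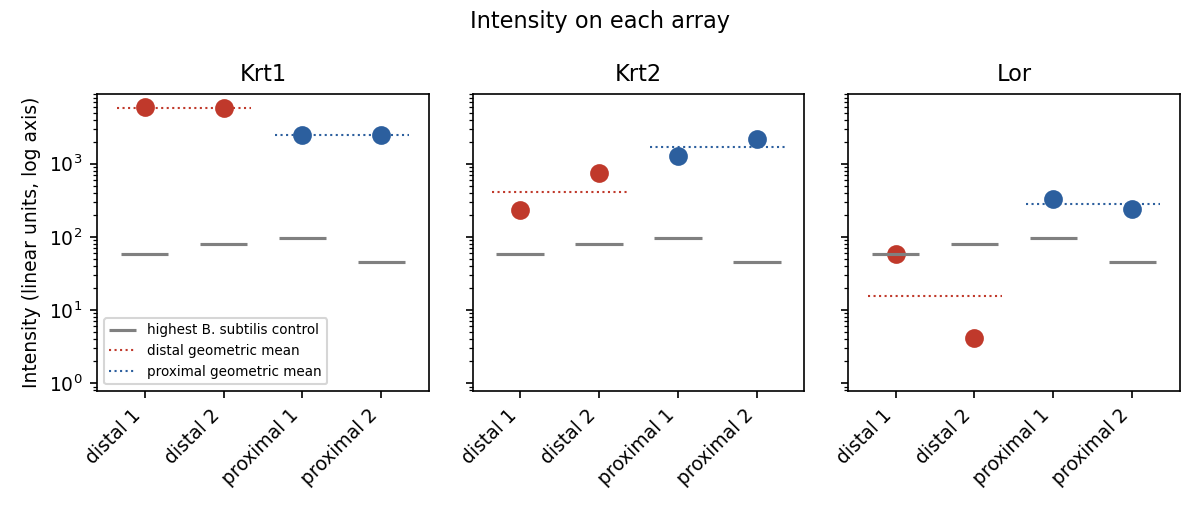
Intensity of Krt1, Krt2 and Lor on each array (points, log axis), with the geometric mean of each region (dotted lines) and the highest Bacillus subtilis control of each array (grey bars). Krt1 is higher on both distal arrays, Krt2 and Lor are higher on both proximal arrays, and Lor on distal replicate 2, at 4.2, lies below the control.

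Distal replicate 1 had the lower Krt2 and the higher Lor of the distal pair. For Lor, however, 58.7 stood just over the background of 58.0 and 4.2 below the background of 81.0. Whether the distal arrays departed in opposite ways for Krt2 and Lor could therefore not be read. Krt1 was nearly alike on the distal arrays. Over all probe sets tested the arrays of the regions did not overlap for 34.7%, 16.4% with the distal arrays on top and 18.3% with the proximal ones. All 3 members were of that kind, 1 with distal and 2 with proximal arrays on top, and nothing is read from that count because the list was chosen on the same contrast. In limma's fit, which called 0.0666% of all probe sets at a Benjamini-Hochberg adjusted p under 0.05, Krt1 was called and Krt2 and Lor were not, and the same reservation holds. The call of Krt1 was lost under each other scaling, with 16 added before log2, without a variance trend and among the brighter probe sets. With the replicate number as a block, where 90 probe sets were called, Krt1 stayed called and Krt2 was called as well. Nothing is read from these calls either. Calls with an array left out are not listed by gene, because the lone array is assumed to vary like the other pair.

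**Figure D2:**
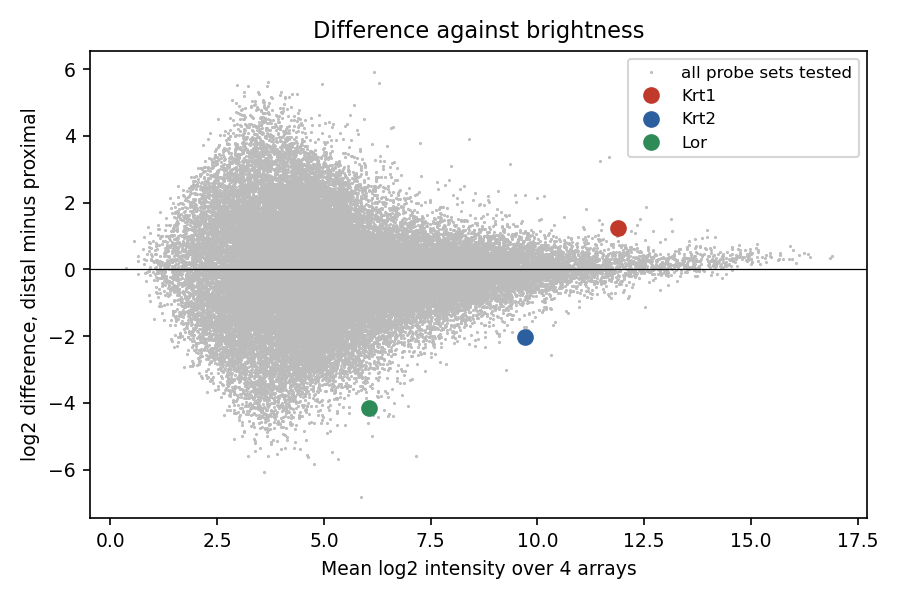
Log2 difference (distal minus proximal) against mean log2 intensity over the 4 arrays, for all 45037 probe sets tested (grey) and the 3 members (coloured). The grey cloud widens towards dim probe sets. Krt1 at 1.24 and Krt2 at -2.02 lie where it is narrow, and Lor at -4.16 lies where it is wide.

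Ratios between the genes on one array do not depend on how that array was scaled. The level of such a ratio also holds the brightness of the probes, so only its change between arrays is described. The intensity ratio of Krt1 to Krt2 was 25.8 and 7.74 in distal matrix and 1.93 and 1.13 in proximal matrix. Both distal ratios were above both proximal ones, although the distal ratios were far from each other. On the log2 scale the mean was 3.82 ± 1.23 in distal and 0.56 ± 0.55 in proximal matrix (SD, n = 2), a change of 3.26, or 9.56-fold. An exact permutation test of 2 arrays against 2 cannot give a two-sided p below 0.333, and none was run.

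The ratio of Krt1 to Lor was 101 and 1367 in distal matrix and 7.54 and 10.3 in proximal matrix. The regions did not overlap, and the proximal arrays were close to each other. The log2 change was 5.40, and 3.52 without distal replicate 2, whose Lor value was below background. The ratio of Krt2 to Lor was 3.92 and 177 in distal matrix and 3.90 and 9.08 in proximal matrix. Here the regions overlapped, with distal replicate 1 and proximal replicate 1 at nearly the same ratio. The log2 change of 2.14 lay within the pooled SD of 2.81 between arrays of a region and turned to -0.60 without distal replicate 2. Whether Lor differed more than Krt2 between the regions could not be read from these arrays.

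**Figure D3:**
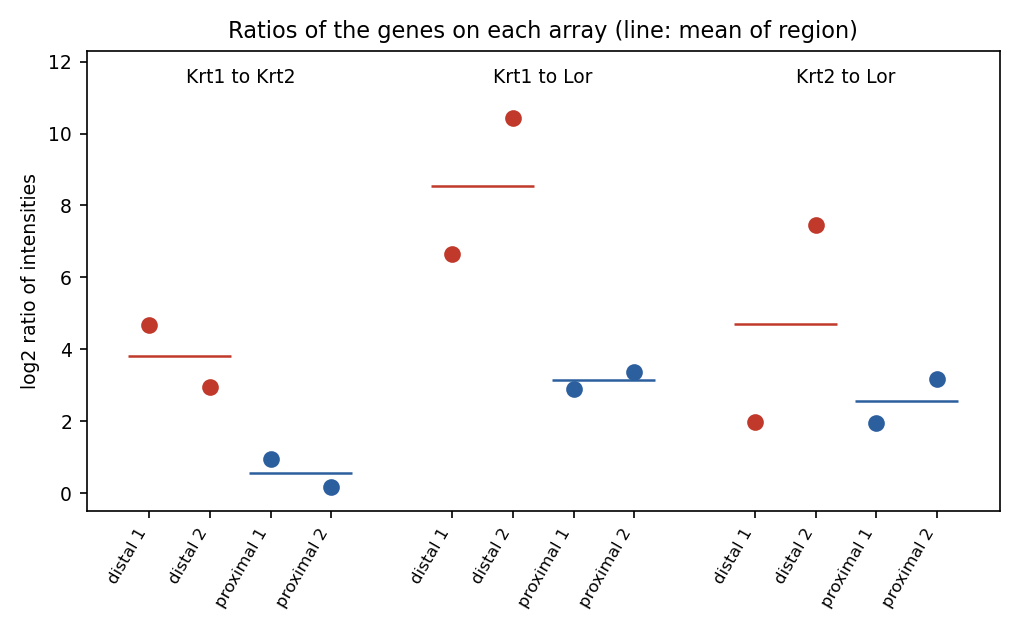
Log2 ratio of the intensities of each pair of members on each array (points) with the mean of each region (lines). The ratios of Krt1 to Krt2 and of Krt1 to Lor are higher on both distal arrays, and the ratio of Krt2 to Lor overlaps, with distal replicate 2 apart at 7.47.

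The direction of each member held under every scaling, floor and left-out array tried. For the left-out arrays this was fixed in advance, because the regions did not overlap for any member. Scaling to the hybridization controls, bacterial and phage transcripts added before hybridization, gave the smallest difference of Krt1, 0.73, and moved Krt2 to -2.53 and Lor to -4.67. Quantile normalization gave 1.06 for Krt1, -2.07 for Krt2 and -4.10 for Lor. Leaving out an array kept Krt1 between 1.21 and 1.26, whereas leaving out a distal array moved Krt2 and Lor by more than any scaling did.

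**Figure D4:**
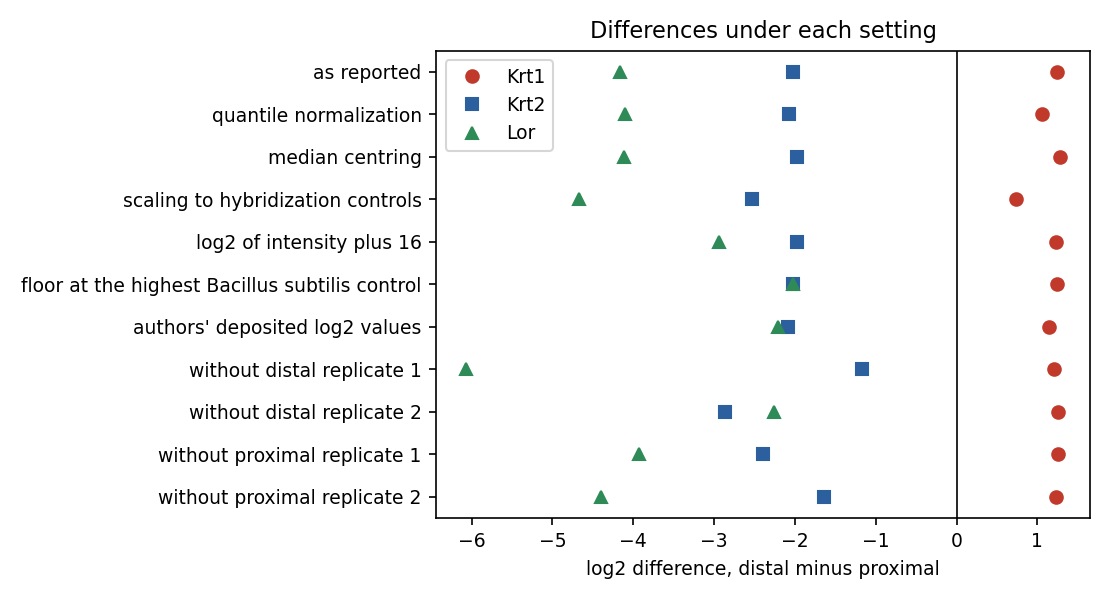
Log2 difference (distal minus proximal) of Krt1, Krt2 and Lor under each setting, 1 setting per line. All values of Krt1 lie right of 0, between 0.73 and 1.28, and all values of Krt2 and Lor lie left of it, with Lor ranging from -6.07 to -2.03.

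Of 49 genes listed for suprabasal and cornified cells, 5 could be named: the 3 members, Csta and Scel. Csta (Csta1 in RefSeq) encodes a cystatin, an inhibitor of cysteine proteases that is built into the cornified envelope. Its intensities were 294 and 260.4 in distal and 406 and 497 in proximal matrix. Scel encodes sciellin, a precursor of the envelope, with 404 and 313 in distal and 459.9 and 404 in proximal matrix. Both genes were higher on both proximal arrays, Scel by a margin of only 404.1 to 403.9. The log2 differences were -0.70 ± 0.50 for Csta and -0.28 ± 0.48 for Scel (SE, n = 2 arrays per region), neither called by limma. Of the 5 genes, 1 was called as higher in distal matrix (0.0533% of all probe sets were) and 0 as higher in proximal matrix (0.0133% were), a count that the choice of the list bears on and from which nothing is read. The gene called was Krt1. Leaving out a distal array raised the count and leaving out a proximal array lowered it, as over all probe sets. In those fits the lone array of a region is assumed to vary like the other pair, so their calls are not listed by gene. The median log2 difference of the 5 was -0.70, beside -0.06 over all probe sets tested and -0.94 over the 1133 genes named in the list.

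Taken against Krt1 on the same array, Csta and Scel gave smaller changes than Krt2 and Lor. The ratio of Krt1 to Csta was 20.2 and 22.1 in distal and 6.14 and 4.95 in proximal matrix, a log2 change of 1.94. The ratio of Krt1 to Scel was 14.7 and 18.3 in distal and 5.43 and 6.08 in proximal matrix, a log2 change of 1.52. Neither ratio overlapped between the regions, and the pooled SD between arrays of a region was 0.17 for Csta and 0.18 for Scel. These changes include the difference of Krt1 itself, 1.24 on the same scale.

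Other keratins of the list stood on both sides. Krt15, a type I keratin of basal cells, had 612 and 906 in distal and 2306 and 2372 in proximal matrix, and the ratio of Krt1 to Krt15 went from 9.71 and 6.33 in distal to 1.08 and 1.04 in proximal matrix. Krt17 and Krt6a, keratins of nail bed and of activated epidermis, had log2 differences of -1.0 ± 0.37 and -0.87 ± 0.46, and the ratio of Krt1 to Krt17 changed by 2.24 and that of Krt1 to Krt6a by 2.11. Krt42, a type I keratin of nail, was higher in the distal matrix like Krt1 but by more, so that the ratio of Krt1 to Krt42 was lower there, at 0.669 and 0.466 against 3.41 and 1.74 in proximal matrix. Krt6b at -0.21 ± 0.74 overlapped between the regions, beside -1.10 in the authors' deposited table. Among genes that anchor basal cells, Plec1 (Plec in RefSeq) was at -0.92 ± 0.67 and Itgb4 at -2.00 ± 1.03. The regions overlapped for Itgb4, whose distal arrays were at 12.1, below background, and at 182. Of the 7 genes named in this list, Krt42 was called as higher in distal matrix (0.0533% of all probe sets were) and Krt15 as higher in proximal matrix (0.0133% were), and the median log2 difference was -0.92. Krt15 was no longer called under each other scaling, with 16 added, without a variance trend or among the brighter probe sets. Krt42 was no longer called under scaling to hybridization controls or without a trend. Both stayed called with the replicate block. Leaving out a distal array raised the calls in this list and leaving out a proximal array lowered them, as over all probe sets. Those calls are likewise not listed by gene.

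All 8 genes of keratin-associated proteins had higher intensities on both distal arrays, as did 16.4% of all probe sets. They were named through the list chosen for fold change, so nothing is read from that count. Of the 8, 3 were above background on all 4 arrays. For these the ratio to Krt1 can be followed: Krt1 to Krtap6-2 was 5.03 and 4.63 in distal and 12.4 and 8.74 in proximal matrix, a log2 change of -1.11. The change was -0.98 for Krtap8-1 and -0.96 for Krtap16-7 (Krtap21-1 in RefSeq). The pooled SD between arrays of a region was 0.26 for Krtap6-2, 0.56 for Krtap8-1 and 0.70 for Krtap16-7. Ratios of Krt1 to Krtap16-7 were 2.6 and 2.18 in distal and 2.87 and 7.46 in proximal matrix. As for Krt42, the signal of these genes was farther apart between the regions than that of Krt1, for Krtap16-7 mainly through proximal replicate 2. Neither Krtap6-1 nor Krtap6-3 was above background on any proximal array, and Krtap16-8, Krtap9-3 and 1110032D16Rik (Krtap22-2 in RefSeq) were above it on 1 of 2, so no ratio is given for them. The ratio of Krt1 to Krtap6-3, Krtap9-3 and 1110032D16Rik overlapped between the regions, and that to Krtap6-1 and Krtap16-8 did not. The ratios given for Lor and Lef1 carry the same limit, a distal array below background. Hoxc13, with 136 and 120.0 in distal and 401 and 664 in proximal matrix, changed against Krt1 by 3.25 on the log2 scale. Lef1, a transcription factor gene of the Wnt pathway, changed by 3.73, with 1 of its distal arrays below background. Selenbp1, the remaining gene of that list, was at -1.87 ± 1.06, overlapped and was above background on 1 array of each region. Of the 11 genes for nail and hair, 3 were called as higher in distal matrix (0.0533% of all probe sets were) and 0 in proximal matrix (0.0133% were), and the median log2 difference was 2.21. As they too come from the list chosen for fold change, nothing is read from the counts. The 3 became 0 under each other scaling, without a variance trend and among the brighter probe sets, and 4 with the replicate block. Leaving out a distal array raised the calls on both sides, here and over all probe sets, and leaving out a proximal array lowered the calls. The lone array of a region is then assumed to vary like the other pair, so those calls are not listed by gene.

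**Figure D5:**
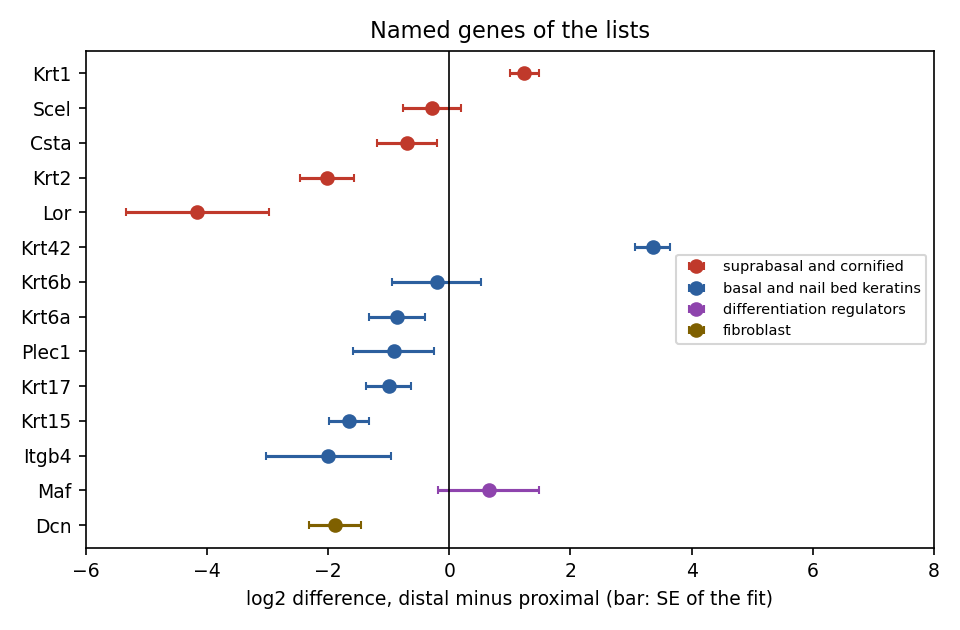
Log2 difference (distal minus proximal, points) with the SE of the fit (bars, n = 2 arrays per region) for the named genes of the suprabasal, basal and nail bed, regulator and fibroblast lists. Krt1 is the only suprabasal gene right of 0, and Krt42, at 3.36, is the only one of the basal and nail bed list.

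Of 30 regulators of epidermal differentiation, 1 could be named, the transcription factor gene Maf, at 300.5 and 75 in distal and 98.3 and 93.2 in proximal matrix. Its regions overlapped, and distal replicate 2 was below background. No gene could be named from the lists for desmosomes and junctions of the upper layers or for the lipid barrier and its proteases. Of 7 fibroblast markers, 1 could be named, Dcn, which encodes the matrix proteoglycan decorin. Its intensities were 243 and 309.7 in distal and 984 and 1049 in proximal matrix, a log2 difference of -1.89 ± 0.43 (SE, n = 2 arrays per region; not called). Decorin signal was therefore higher on the arrays where Krt2 and Lor were higher, and its part in their differences was not tested. The ratio of Krt1 to Dcn was 24.5 and 18.5 in distal and 2.54 and 2.34 in proximal matrix. No marker from the lists for endothelial and mural, immune, pigment, nerve, bone, muscle, fat, blood, simple epithelial or sweat gland cells could be named.

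The genes whose profile over the 4 arrays lay nearest to each member were sought among 1173 other named probe sets above the median brightness, by Euclidean distance of log2 values centred on their mean. With 4 arrays this describes only which arrays were high and low. Nearest to Krt1 were Leng1 (0.20), Zfp26 (0.24) and Gm94 (0.24), all dimmer than Krt1 in raw signal, with Leng1 at 276 and 222 in distal and 107.5 and 99.8 in proximal matrix. Nearest to Krt2 were D17Ertd165e (0.14), Sptlc1 (0.30), which encodes a subunit of serine palmitoyltransferase, and Kpna1 (0.31), which encodes a nuclear import receptor. Sptlc1 had 50.9 and 150.3 in distal and 317 and 403 in proximal matrix, lowest on distal replicate 1 like Krt2. On that array, however, D17Ertd165e, Sptlc1 and Kpna1 were all below the background of 58.0, and Krt2 at 229.9 was not. Nearest to Lor were Rnf128 (0.13), which encodes a ubiquitin ligase, Ddx50 (0.57), an RNA helicase gene, and 5830407P18Rik (0.62). Rnf128 had 38.1 and 2.8 in distal and 227 and 144.9 in proximal matrix, below background on both distal arrays, where Lor was below it on replicate 2 alone. All of these came from the list chosen for fold change, and no other member was among the nearest 3 of any member.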

How the data were processed

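RNA from 2 distal and 2 proximal nail matrix samples was extracted with Trizol and labelled for 3' expression arrays, per the labels' protocols. Intensity values in the deposited table are linear and were scaled by the authors to a mean of 150.0 per array once 2% is trimmed at each end; no source used here names the method. The second deposited file is the authors' list, whose fold (a ratio without sign, at least 1.99, on Mouse430_2 arrays, per the file headers) is the difference of 2 deposited log2 group values with unstated normalization. Gene names come from this list. All 3 members were matched to RefSeq by Entrez identifier.

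Log2 was taken of the intensities, with a floor of 1. The 45037 probe sets other than controls were fitted with limma 3.58.1 in R 4.3.3 (lmFit, eBayes with a variance trend, Benjamini-Hochberg adjustment, two-sided, threshold 0.05), which gave the standard errors and calls and was tested on simulated data. A gene was represented by its brightest listed probe set. Background on an array was the highest of 27 Bacillus subtilis controls. Scaling alternatives used 18 hybridization controls, quantile normalization and medians, and further alternatives added 16 before log2, dropped the variance trend or the dimmer probe sets, used the replicate number as a block, or left out each array. The text names the members, every gene of the fixed lists that could be named, and the 3 nearest profiles of each member. The members and lists were chosen with earlier results of these data known. The correlation of deviations from the region means between arrays of the same number was -0.00723 over all probe sets tested, and the numbers were not taken as pairs. Only 33.6% to 47.5% of these probe sets were above background on an array, so the correlation cannot exclude pairing.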

Additional observations from a re-analysis of the deposited data

How the results depend on the processing

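The differences of Krt1, Krt2 and Lor kept their direction under all 11 alternatives each, and so did the ratios of Krt1 to Krt2 and of Krt1 to Lor under all 9. Much of this was fixed in advance. The regions did not overlap for these values, so leaving out 1 array could not turn them. A mean over all listed probe sets changed nothing, as each member had 1. The floor left Krt1 and Krt2 as they were, and the authors' list was chosen on this same contrast. The ratio of Krt2 to Lor turned in 1 of 9 (-0.60 without distal replicate 2, up to 4.89 without distal replicate 1). Beyond the spread between arrays of a region, which is only 0.03 for Krt1, its difference of 1.24 moved to 1.06 under quantile normalization, 1.28 under median centring, 0.73 under scaling to hybridization controls and 1.14 in the authors' deposited table. That of Lor, -4.16, moved to -2.03 with the background control as a floor, chosen after seeing the data, and to -2.21 in the authors' deposited table, and the ratio of Krt1 to Lor moved to 3.27 and 3.35 there. The floor by construction raises the distal value of Lor that lay below background; for the authors' values the cause was not tested. Leaving out arrays gave 1.21 to 1.26 for Krt1, -2.87 to -1.17 for Krt2 and -6.07 to -2.26 for Lor.

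The 30 probe sets that limma called became 9 under quantile normalization, 8 under median centring, 12 under scaling to hybridization controls, 17 with 16 added, 2 among the brighter probe sets, 0 without a variance trend (3010 at an unadjusted p under 0.05), 90 with the replicate number as a block, and 4 to 899 when an array was left out, where the lone array of a region is assumed to vary like the other region. Of the 5 cornification genes, the 1 called became 0 under each of the scalings, with 16 added, among the brighter probe sets and without the trend (1 to 3 at an unadjusted p under 0.05), 2 with the replicate block, and 0 to 3 when an array was left out. The cause was not tested.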
